A study of Homo sapiens with 8 samples.

Results

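A set of 116 genes was selected on their measured values from a table of nascent transcription over 27945 genes in human fibroblasts. These genes were transcribed more in senescent than in control cells, and more still when METTL3 or METTL14 was knocked down in the senescent cells. After removal of 21 rows of ribosomal RNA, 11063 genes had at least 100 counts summed over the 8 libraries, and the members were chosen by 4 values of each gene. The mean CPM (read counts scaled to 1000000 counts outside ribosomal RNA) had to be at least 1.4 times higher in senescent shControl cells than in control cells, at least 1.4 times higher with shMETTL3 and with shMETTL14 than with shControl, and every single library had to follow the order control, senescent shControl, knockdowns. The 3 steps that define the set are therefore given as a description, and a test was made only between the 2 knockdowns, whose difference from each other was not a criterion. It was still limited by the selection, since both knockdowns had to lie above shControl, which leaves out the genes that moved in opposite directions, and since their counts entered the summed count. In 27 genes fewer than 100 counts lay outside the shMETTL14 libraries and in 23 outside the shMETTL3 libraries, 30 genes in all, so that a knockdown was needed for their admission and their differences between the knockdowns are given without a p-value where they were called.

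The cells were IMR90, primary diploid fibroblasts of embryonic human lung, carrying a fusion of the estrogen receptor with the oncogene H-RASG12V (ER:RAS) that 4-hydroxytamoxifen (4-OHT) switches on. Nascent RNA was captured by fastGRO-seq, a nuclear run-on assay in which engaged polymerases elongate their transcripts with a labelled nucleotide, so that reads report ongoing transcription. There were 4 groups of 2 libraries. One was labelled as control, and the other 3 were made senescent with 100 nM 4-OHT, harvested on day 6, and carried shControl, shMETTL3 or shMETTL14. The control cells are labelled without an shRNA, so that senescence and infection with an shRNA cannot be told apart in the first step. The labels name a single shRNA construct per targeted gene, and the replicates are described by the study as biologically independent without a record of separate cultures, so p-values measure the spread between these libraries.

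Cells that an oncogene drives into senescence stop dividing and secrete inflammatory factors. METTL3 and METTL14 together form the methyltransferase that places N6-methyladenosine (m6A) on RNA, with METTL3 as the catalytic and METTL14 as the RNA-binding subunit, and the complex has also been found at promoters. In the 116 genes, by their selection, depletion of either subunit went with more transcription and not with less.

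Of the 11063 genes, 1797 had a mean at least 1.4 times higher in senescent shControl cells than in control cells, and 1732 of them also had both senescent libraries above both control libraries. Among these 1732 genes, 273 were higher still with shMETTL3 in fold and order, 356 with shMETTL14, and 116 with both. The 116 are 6.70% of the 1732. The opposite response was more frequent, with 626 genes lower with shMETTL3, 459 lower with shMETTL14 and 233 lower with both. A further 113 genes moved in opposite directions in the 2 knockdowns. These counts are those of the selection and carry no test, and both knockdown steps share the senescent shControl libraries.

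The median ratio of mean CPM over the 116 genes was 2.50 in senescence, 2.07 with shMETTL3 over shControl and 2.11 with shMETTL14 over shControl. With ELOVL7 and G0S2, which had no count in control cells, at a floor of 3 counts over the group, the first median was 2.45. Relative to control cells, the median ratio over the 114 genes with a control count was 5.04 with shMETTL3 and 5.38 with shMETTL14. A more than 4-fold rise over shControl was found for 11 genes with shMETTL3 and for 19 with shMETTL14. Only 5 genes had it in both knockdowns, namely SP140, LOC100128993 and the overlapping MIR548H2, AADACL2-AS1 and AADACP1.

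The smallest of the 3 ratios was that of senescence in 26 genes, that of shMETTL3 in 50 and that of shMETTL14 in 40. The genes nearest to the limit inside it were HMGXB3, whose smallest ratio was 1.403 with shMETTL3, and BHLHE40-AS1 and GORAB, whose smallest ratios were 1.41 with shMETTL14 and 1.41 in senescence. Just outside it, with all libraries in the same order, were LOC100128317 and LOC729603, with 1.39 with shMETTL3, and SEMA7A, also with 1.39 with shMETTL3. SEMA7A, a membrane-anchored semaphorin, otherwise rose 9.33-fold in senescence and 1.85-fold with shMETTL14.

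**Figure D1:**
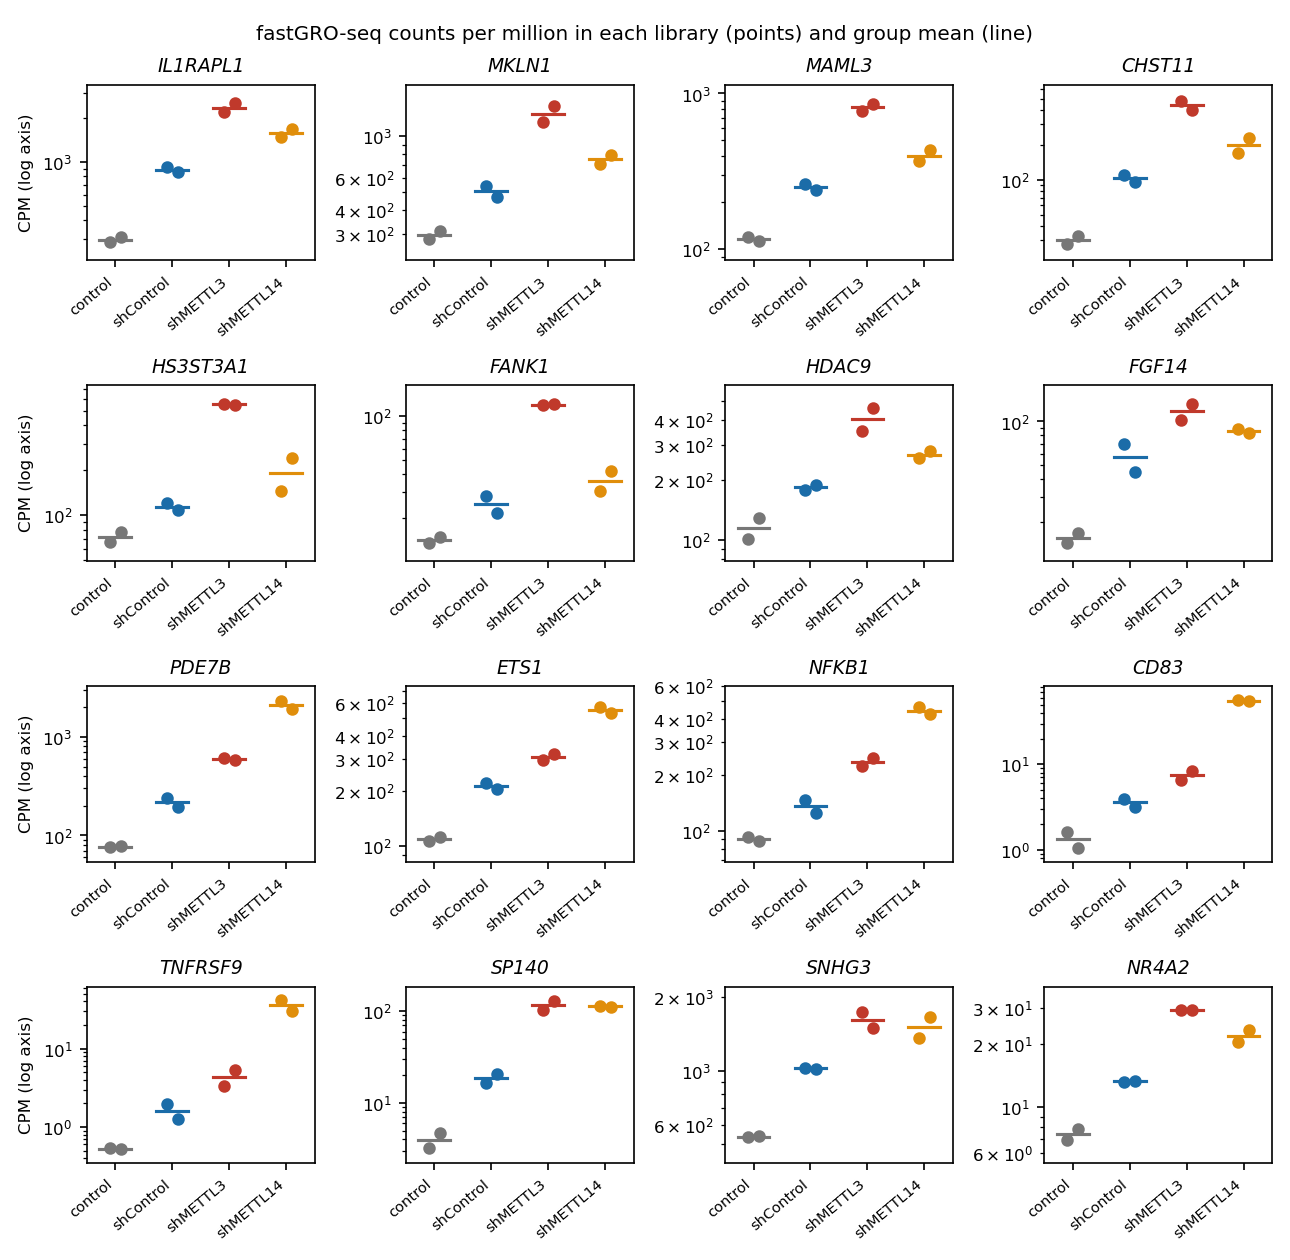
CPM of 16 genes of the set in each library (points, log axis) with the group mean (line), for control cells and for senescent cells with shControl, shMETTL3 or shMETTL14. The order control, shControl, knockdowns is that of the selection, whereas the order of the 2 knockdowns was free: IL1RAPL1 to FGF14 lie higher with shMETTL3, PDE7B to TNFRSF9 lie higher with shMETTL14, and SP140, SNHG3 and NR4A2 were not called between them.

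Between 86.2% and 92.5% of each library lay in ribosomal RNA rows, and 1513930 to 2048475 counts per library were left for all other genes, with the lowest totals in senescent shControl cells. The mean raw count of the 116 genes ranged from 12.5 to 2274 with a median of 60.0. In 30 genes the summed count was under 200. Of the targeted genes, METTL3 had 77 and 47 counts in shControl cells and 16 and 19 after its knockdown (log2 fold change -2.04, SE 0.31, adjusted p = 1.8e-05 by edgeR). METTL14 had 24 and 28 counts in shControl cells and 18 and 14 after its own knockdown. That change did not pass the threshold (log2 fold change -0.86, SE 0.34, adjusted p = 0.076 by edgeR). With shMETTL14 against shMETTL3, METTL14 was lower (log2 fold change -1.41, SE 0.32, adjusted p = 0.001 by edgeR). METTL3 was higher (1.93, SE 0.31, adjusted p = 1.9e-05 by edgeR). These are counts of nascent RNA and do not measure protein, for which the study refers to a western blot. The summed CPM of 8 fibroblast markers was 18076 to 19416 in control cells, 11581 to 12710 in shControl cells, 12299 to 15092 with shMETTL3 and 8340 to 9746 with shMETTL14. That of 5 epithelial markers was 29.0 to 30.5, 16.5 to 30.4, 11.2 to 12.6 and 36.7 to 46.7 in the same order, and that of 4 endothelial markers at most 5.36. Fibroblast markers were thus lowest and epithelial ones highest with shMETTL14, and their part in the differences between the knockdowns was not tested. Spiked Drosophila nuclei did not enter the scaling, so that a shift common to all genes would not be seen.

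Short sequences upstream of 2 members are shown first, because they hold a recognition motif and belong to genes that differed between the knockdowns in opposite directions. Transcription factors of the CREB and ATF family recognise the cyclic AMP response element TGACGTCA, and AP-1 dimers of FOS and JUN proteins recognise TGANTCA. Both families are activated downstream of RAS and stress kinases, and 4 members encode factors of the AP-1, EGR, ATF and NR4A kind. The 250 bases before the start of both genes are given from RefSeq (GRCh38.p14) in the direction of transcription, with the motif in capitals. PDE7B (chr6:135851451-135851700, plus strand) and HS3ST3A1 (chr17:13601930-13602179, minus strand) hold the cyclic AMP response element, beginning 155 and 49 bases before the start. Found again in hg19, these starts lie 5 and 13 bases inside the counted genes.
PDE7B: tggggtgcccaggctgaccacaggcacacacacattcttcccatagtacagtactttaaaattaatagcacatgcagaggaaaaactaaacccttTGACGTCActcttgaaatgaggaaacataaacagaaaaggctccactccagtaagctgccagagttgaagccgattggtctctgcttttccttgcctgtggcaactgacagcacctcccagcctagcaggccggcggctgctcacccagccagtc
HS3ST3A1: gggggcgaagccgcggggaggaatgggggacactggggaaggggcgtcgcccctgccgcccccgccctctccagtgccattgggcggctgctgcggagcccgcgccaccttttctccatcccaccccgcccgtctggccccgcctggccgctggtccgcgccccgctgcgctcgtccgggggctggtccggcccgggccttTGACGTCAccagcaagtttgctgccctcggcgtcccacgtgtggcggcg

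PDE7B was higher and HS3ST3A1 lower with shMETTL14 than with shMETTL3. RefSeq promoters of 300 bases, from 250 bases before to 50 bases after the start, were matched by symbol for 81 of the 116 genes, or 69.8%, which is under the 80% needed to compare the set with other genes, and that comparison is void. Of the 81 promoters, 73 were found in hg19, 41 with a start within 50 bases of that of the counted gene and 10 with one over 1000 bases away. Searched on both strands without mismatches, TGACGTCA was in 2 of the 81 promoters and in 1.98% of the 27305 genes of the promoter table. TGANTCA was in 5 of the 81, those of HDAC9, KCNMA1-AS3, LOC101930114, LUCAT1 and TNFRSF9, and in 7.76% of the 27305. Of the 8973 promoters found for genes with at least 100 counts, 3.42% held TGACGTCA and 4.62% TGANTCA. The order of set and background changes with the background, and nothing is read from it. The RefSeq starts of HDAC9 and TNFRSF9 lie 408807 and 2326 bases inside the counted genes, so that their windows are not those of the starts counted here, and they are not printed. PDE7B and HS3ST3A1 also share the bases around the element, as the run ccttTGACGTCAc of 13 bases was found in 2 of the 27305 promoters on either strand, a count made after the sequences were seen. The matches describe letters in these windows and say nothing about binding.

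The knockdowns were then compared with each other by edgeR's quasi-likelihood test in a fit to all 8 libraries, with p-values adjusted by the Benjamini-Hochberg method over 12844 genes. Of the 116 genes, 20 (17.2%) were higher and 24 (20.7%) were lower with shMETTL14 than with shMETTL3, against 16.5% and 18.7% of all genes tested. The shares were near the background, and 72 genes (62.1%) did not pass the threshold, against 64.8% of all genes. The median log2 fold change was -0.05 over the 116 genes and 0.01 over all genes. The values ranged from -1.95 to 3.83. Leaving out replicate 1 of shMETTL14 reduced the calls to 10 higher and 11 lower, and DESeq2 gave 11 and 14. With TMM replaced by library size alone, ribosomal RNA rows included, they were 12 and 44, against 1177 and 3486 over all genes. That scaling puts the median of all genes at -0.25. The call was kept under every alternative for 18 of the 44 genes, 8 higher and 10 lower, and none of the 44 changed sign. Of the 30 genes that a knockdown admitted, 7 were among the 20 called higher and 1 among the 24 called lower, and the other 86 genes had 13 called higher (15.1%) and 23 called lower (26.7%), of which 5 and 10 kept the call under every alternative.

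**Figure D2:**
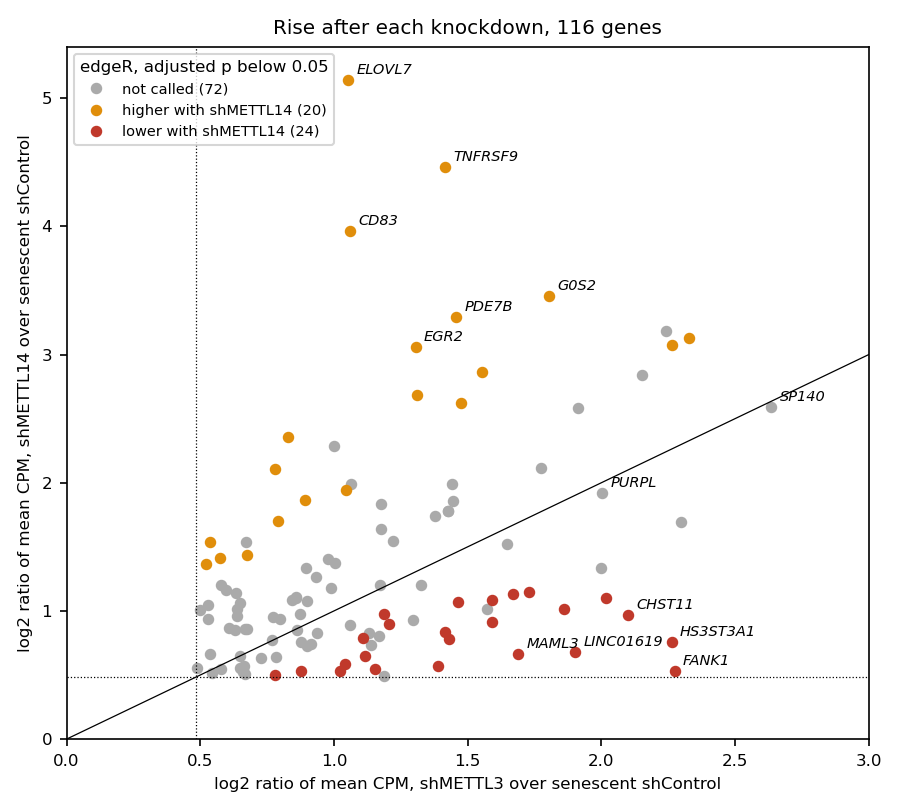
Rise of the 116 genes after each knockdown, as the log2 ratio of mean CPM over senescent shControl cells with shMETTL3 (horizontal axis) and with shMETTL14 (vertical axis), with the limits of the selection dotted, equal rises on the diagonal, and genes coloured by edgeR's call between the knockdowns. The 20 genes higher with shMETTL14 lie above the diagonal, with ELOVL7 at the top, and the 24 lower ones lie below it, with FANK1 and HS3ST3A1 farthest to the right.

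The largest differences in favour of METTL14 knockdown were those of ELOVL7, TNFRSF9 and CD83, which had 22, 24 and 45 counts in the other 6 libraries and reached 100 counts only through shMETTL14, so that their differences are a description. ELOVL7, which encodes an elongase of long-chain fatty acids, had no count in control cells, 3 and 3 in shControl cells, 4 and 12 with shMETTL3 and 118 and 104 with shMETTL14. The shMETTL14 libraries stood far above the other 6, and of the shMETTL3 libraries the lower was close to shControl and the higher well above it. The log2 fold change between the knockdowns was 3.83 (standard error 0.36). In senescence its ratio was at least 2.44-fold against the floor of 3 counts.

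TNFRSF9, the co-stimulatory receptor 4-1BB of the TNF receptor superfamily, had 1 and 1 counts in control cells, 3 and 2 in shControl cells, 6 and 11 with shMETTL3 and 68 and 48 with shMETTL14. CD83, a surface protein of activated antigen-presenting cells, followed the same order with 3 and 2, 6 and 5, 12 and 17 and 93 and 87 counts. For both genes the shMETTL3 libraries lay a few counts above shControl, whereas both shMETTL14 libraries were several times higher. The log2 fold change between the knockdowns was 2.81 for TNFRSF9 (standard error 0.40) and 2.68 for CD83 (standard error 0.31). With 2 counts in the control group and 5 with shControl, the ratio of TNFRSF9 in senescence was 3.06 with a 95% counting interval of 0.50 to 32.0.

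Both genes are known from immune cells, and 4 immune markers were therefore read in the same libraries. Their summed CPM was 9.12 to 9.98 in control cells, 29.8 to 41.6 with shControl, 13.2 to 25.2 with shMETTL3 and 28.5 to 30.9 with shMETTL14, and CD3E had no count in any library. The sum was higher in both shMETTL14 libraries than in both shMETTL3 libraries, as were CD83 and TNFRSF9, and highest in a shControl library. Its part in the result was not tested.

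Transcription factors of the set were called in both directions or not called. NFKB1 encodes the p105 and p50 subunit of NF-kappaB and is named here after its values were seen. It had 92.3 and 88.8 CPM in control cells, 147 and 126 in shControl cells, 224 and 247 with shMETTL3 and 462 and 424 with shMETTL14. The groups did not overlap, and both shMETTL14 libraries lay well above both shMETTL3 libraries. The log2 fold change between the knockdowns was 0.71 (standard error 0.13, adjusted p = 0.00018, edgeR) and passed the threshold under every alternative. ETS1, an ETS factor that acts at the end of RAS-ERK signalling, had 107 and 112 CPM in control cells, 222 and 205 in shControl cells, 295 and 317 with shMETTL3 and 571 and 529 with shMETTL14. Its log2 fold change between the knockdowns was 0.64 (standard error 0.13, adjusted p = 0.00037, edgeR), and it missed the threshold only with library size alone.

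ATF3, a stress-induced factor that pairs with JUN proteins, rose less with shMETTL3 than with shMETTL14. It had 9.66 and 5.78 CPM in control cells, 24.4 and 19.0 in shControl cells, 31.3 and 31.7 with shMETTL3 and 70.3 and 55.7 with shMETTL14 (log2 fold change between the knockdowns 0.80, standard error 0.23, adjusted p = 0.0075, edgeR). EGR2, a zinc finger factor of the early growth response, had 1 and 0 counts in control cells, 6 and 5 in shControl cells, 9 and 26 with shMETTL3 and 51 and 45 with shMETTL14. The shMETTL3 libraries of EGR2 differed widely, and its log2 fold change of 1.51 between the knockdowns (standard error 0.39) was 1.01 or 2.42 in the lowest and highest of the fits that leave out a library. ATF3 lost the call without replicate 1 of shMETTL14, with DESeq2 and with library size alone. EGR2 had 47 counts outside the shMETTL14 libraries and was admitted through them.

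NR4A3 and NR4A2 are orphan nuclear receptors and early response genes, of which NR4A3 was called lower with shMETTL14. NR4A3 had 4.29 and 2.63 CPM in control cells, 18.5 and 13.3 in shControl cells, 42.3 and 53.7 with shMETTL3 and 29.1 and 38.6 with shMETTL14, with a log2 fold change between the knockdowns of -0.71 (standard error 0.25, adjusted p = 0.026, edgeR). NR4A2 had 6.97 and 7.88, 13.2 and 13.3, 29.1 and 29.3 and 20.6 and 23.4 CPM in the same order of groups. Its log2 fold change of -0.61 did not pass the threshold (standard error 0.27, adjusted p = 0.083, edgeR). NR4A3 lost its call without replicate 1 of shMETTL14, without replicate 2 of shMETTL3, with DESeq2 and at an adjusted p below 0.01.

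A pair of induced genes was covered by few reads. G0S2, an inhibitor of lipolysis in fat droplets, had no count in control cells, 5 and 2 in shControl cells, 14 and 17 with shMETTL3 and 43 and 38 with shMETTL14, and lies inside LOC101930114 on the opposite strand, which had 53 and 51 counts with shMETTL14. Without these libraries G0S2 had 38 counts and LOC101930114 86, so that both were admitted through them. SIK1, a kinase that CREB induces and that restrains CREB co-activators, had 6 and 6 counts in control cells, 10 and 8 in shControl cells, 34 and 26 with shMETTL3 and 37 and 28 with shMETTL14. SIK1B has the same counts in every library, as both rows count the same reads.

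PDE7B, a phosphodiesterase that breaks down cyclic AMP, was among the 12 members with the most reads and had the largest difference in favour of shMETTL14 among these 12. It spans 344 kb of chromosome 6 (136172834 to 136516709 in hg19, plus strand). Its level was 76.7 and 77.8 CPM in control cells, 239.8 and 193 in shControl cells, 607 and 580.4 with shMETTL3 and 2308 and 1929 with shMETTL14. All 4 groups were apart, and both shMETTL14 libraries were more than 3 times higher than either shMETTL3 library. The ratio to shControl was 2.75 with shMETTL3 and 9.80 with shMETTL14, and the log2 fold change between the knockdowns was 1.63 (standard error 0.14, adjusted p = 3.2e-09, edgeR). LOC644135, a non-coding RNA of 29.0 kb on the opposite strand, lies wholly inside PDE7B and had 105 and 106 CPM with shMETTL3 and 275 and 249 with shMETTL14. As reads of overlapping genes could not be told apart, the 2 rows are not independent. PDE7B was the only one of 16 tested phosphodiesterases in the set. Of these 16 genes, 4 were higher and 2 lower in senescence, 5 and 3 after METTL3 knockdown, and 3 and 3 after METTL14 knockdown, while 2 were higher and 7 lower with shMETTL14 than with shMETTL3.

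**Figure D3:**
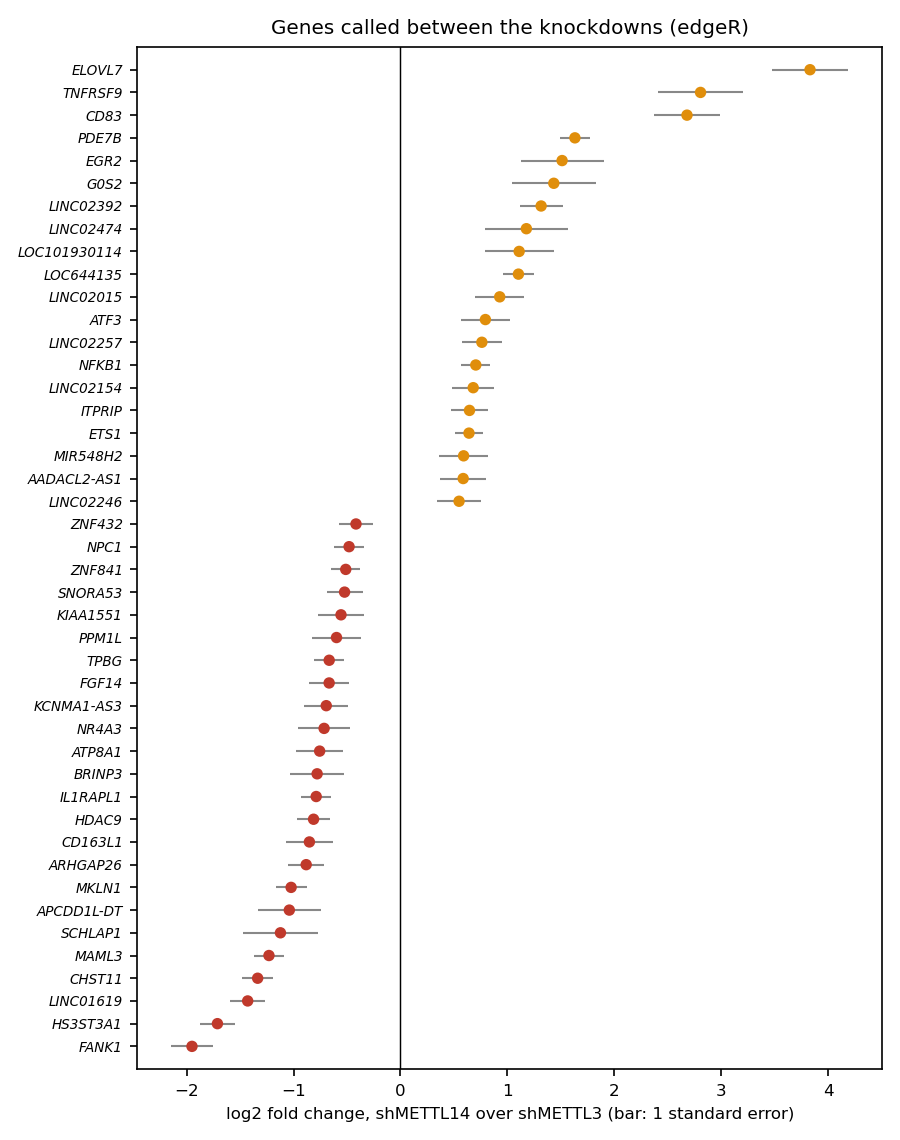
Log2 fold change of shMETTL14 over shMETTL3 (points) with 1 standard error (bars) from edgeR for the 44 genes of the set called between the knockdowns. Differences reach 3.83 for ELOVL7, which was admitted through the shMETTL14 libraries, on the side of shMETTL14 and -1.95 for FANK1 on the side of shMETTL3.

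On the side of METTL3 knockdown, 2 enzymes that sulfate glycosaminoglycans were among the 5 largest differences. HS3ST3A1, which adds 3-O-sulfate to heparan sulfate, lies on chromosome 17 and had 66.0 and 77.8 CPM in control cells, 121 and 108 in shControl cells, 553 and 545 with shMETTL3 and 145 and 240.3 with shMETTL14. The shMETTL3 libraries were nearly equal and far above all others, whereas the lower shMETTL14 library lay close to shControl. The log2 fold change between the knockdowns was -1.71 (standard error 0.17, adjusted p = 1.5e-08, edgeR). CHST11, which adds 4-O-sulfate to chondroitin, had 27.9 and 32.6 CPM in control cells, 109 and 96.4 in shControl cells, 479 and 403 with shMETTL3 and 172 and 229.6 with shMETTL14. Its ratio to shControl was 4.29 with shMETTL3 and 1.95 with shMETTL14, and the log2 fold change between the knockdowns was -1.34 (standard error 0.15, adjusted p = 9.0e-08, edgeR). These were 2 of 21 tested genes of heparan and chondroitin sulfation, of which 6 were higher and 5 lower in senescence, 5 and 3 after METTL3 knockdown, and 4 and 5 after METTL14 knockdown.

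FANK1, which encodes a fibronectin type III and ankyrin repeat protein best known from the testis, had 13.4 and 14.7 CPM in control cells, 28.4 and 21.6 in shControl cells, 119 and 123 with shMETTL3 and 30.3 and 41.7 with shMETTL14. It rose 4.84-fold with shMETTL3 but only 1.44-fold with shMETTL14, close to the limit of the selection. Its log2 fold change of -1.95 between the knockdowns was the most negative of the set (standard error 0.19, adjusted p = 2.0e-08, edgeR). LINC01619, a non-coding RNA of 158 kb on chromosome 12, had 31.1 and 31.5 CPM in control cells, 39.6 and 52.0 in shControl cells, 170.1 and 172 with shMETTL3 and 63.0 and 83.5 with shMETTL14. It shares 45.4% of the span of BTG1, an antiproliferative gene on the same strand that had 76.8 and 82.0 CPM with shMETTL3 and 58.2 and 86.0 with shMETTL14. LINC01619 was called lower with shMETTL14 (log2 fold change -1.43, standard error 0.17, adjusted p = 1.8e-07, edgeR), while BTG1 was not (log2 fold change -0.35, standard error 0.19, adjusted p = 0.16, edgeR).

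MAML3, a co-activator of NOTCH receptors, had 120.2 and 113 CPM in control cells, 263 and 242 in shControl cells, 767 and 859.7 with shMETTL3 and 367 and 432 with shMETTL14. Its log2 fold change between the knockdowns was -1.23 (standard error 0.14, adjusted p = 1.2e-07, edgeR). HES1, a repressor that NOTCH induces, and FZD8, a receptor for WNT ligands, rose to similar levels in both knockdowns. HES1 had 1 and 2 counts in control cells, 13 and 10 in shControl cells, 24 and 30 with shMETTL3 and 26 and 25 with shMETTL14, and FZD8 had 8 and 9, 39 and 37, 94 and 75 and 93 and 76. The log2 fold changes between the knockdowns were -0.02 for HES1 (standard error 0.36) and 0.05 for FZD8 (standard error 0.22, adjusted p = 0.88, edgeR), and neither passed the threshold. HES1 had 80 counts outside the shMETTL14 libraries and 77 outside the shMETTL3 libraries, so that a knockdown was needed for its admission. Of 29 tested WNT and NOTCH pathway genes, a list without MAML3, 9 were higher and 7 lower in senescence, 4 and 4 after METTL3 knockdown, and 2 and 12 after METTL14 knockdown.

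IL1RAPL1 and HDAC9, both longer than 300 kb, were called lower with shMETTL14, as were 46.5% of all tested genes of that length. MAML3, CHST11, MKLN1, FGF14, BRINP3 and PPM1L, also longer than 300 kb, were called lower too. IL1RAPL1, a synaptic member of the interleukin-1 receptor family, spans 1368 kb of chromosome X and had the most reads of the set, with 285 and 306 CPM in control cells, 925 and 853 in shControl cells, 2197 and 2549 with shMETTL3 and 1483 and 1684 with shMETTL14. Its log2 fold change between the knockdowns was -0.79 (standard error 0.14, adjusted p = 7.4e-05, edgeR). HDAC9, a class IIa histone deacetylase gene of 915 kb, had 101 and 129 CPM in control cells, 177 and 189 in shControl cells, 352 and 462 with shMETTL3 and 257 and 278 with shMETTL14 (log2 fold change -0.81, standard error 0.15, adjusted p = 0.00013, edgeR). Both genes passed the threshold between the knockdowns under every alternative.

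MKLN1, which encodes muskelin, a subunit of the CTLH ubiquitin ligase, had 281 and 308 CPM in control cells, 539.7 and 475 in shControl cells, 1195 and 1460 with shMETTL3 and 710.3 and 797 with shMETTL14, with a log2 fold change between the knockdowns of -1.02 (standard error 0.14, adjusted p = 3.7e-06, edgeR). PODXL, an anti-adhesive sialomucin gene that lies 3622 bases from MKLN1 on the opposite strand, rose to 114 and 95.7 CPM with shMETTL3 and 113 and 99.9 with shMETTL14 from 54.2 and 38.7 in shControl cells and was not called between the knockdowns (log2 fold change -0.17, standard error 0.17, adjusted p = 0.46, edgeR). FGF14, an intracellular fibroblast growth factor homologue that binds sodium channels, had 14.5 and 16.8 CPM in control cells, 69.4 and 45.0 in shControl cells, 103 and 133 with shMETTL3 and 88.5 and 82.8 with shMETTL14. It was called lower with shMETTL14 (log2 fold change -0.67, standard error 0.18, adjusted p = 0.006, edgeR), and lost the call without replicate 2 of either knockdown. It was the only member among 45 tested growth factors and receptors, of which 17 were higher and 18 lower in senescence, 6 and 17 after METTL3 knockdown, and 5 and 22 after METTL14 knockdown.

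The other genes called lower with shMETTL14 had log2 fold changes from -1.12 for the non-coding SCHLAP1 to -0.42 for ZNF432. KCNMA1-AS3, an antisense RNA, was one of them, with 17.2 and 19.97 CPM in control cells, 25.1 and 27.9 in shControl cells, 51.0 and 56.6 with shMETTL3 and 39.4 and 37.3 with shMETTL14 (log2 fold change -0.69, standard error 0.21, adjusted p = 0.01, edgeR), and it lost the call in 5 alternatives. SCHLAP1 had 63 counts outside the shMETTL3 libraries and was admitted through them, and ZNF432 lost the call in 10 alternatives. Among them were the phospholipid flippase ATP8A1 (-0.76), the oncofetal membrane protein TPBG (-0.67) and the lysosomal cholesterol transporter NPC1 (-0.48). These 3 were chosen after their values were seen. TPBG kept the call in all alternatives, NPC1 lost it without replicate 1 of either knockdown, and ATP8A1, which moved to -0.32 without a library, lost it with DESeq2, without replicate 2 of shMETTL3 and without replicate 1 of shMETTL14. NPC1 had 37.0 and 38.9 CPM in control cells, 108 and 124 in shControl cells, 222 and 177 with shMETTL3 and 163 and 165 with shMETTL14. The KRAB zinc finger genes ZNF432 and ZNF841 lie 8975 bases apart on chromosome 19 and were both in the set, with ZNF841 at 52.0 and 54.6 CPM in control cells, 154 and 124 in shControl cells, 316 and 326 with shMETTL3 and 243 and 276 with shMETTL14.

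SP140 had the highest ratio of the set with shMETTL3 and was not called between the knockdowns. It encodes a bromodomain protein of nuclear bodies that is best known from leukocytes, and lies on chromosome 2. Its level was 3.22 and 4.73 CPM in control cells, 16.5 and 20.9 in shControl cells, 104 and 128 with shMETTL3 and 115 and 111 with shMETTL14. The knockdown libraries overlapped each other and lay more than 4 times above shControl. The ratio to shControl was 6.21 with shMETTL3 and 6.03 with shMETTL14, and the log2 fold change between them was -0.25 (standard error 0.16, adjusted p = 0.25, edgeR). It was the only member of 28 tested interferon-stimulated and nuclear body genes, of which 2 were higher and 6 lower in senescence, 8 and 1 after METTL3 knockdown, and 5 and 2 after METTL14 knockdown.

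PURPL, a non-coding RNA that p53 induces, rose little in senescence and strongly after either knockdown, with 32.2 and 35.2 CPM in control cells, 56.8 and 54.5 in shControl cells, 198 and 248 with shMETTL3 and 224 and 197 with shMETTL14. It is named here after its values were seen. Between the knockdowns its log2 fold change was -0.29 (standard error 0.14, adjusted p = 0.11, edgeR). None of 29 tested p53 targets and CDK inhibitors, a list that does not hold PURPL, was in the set. Of these 29 genes, 6 were higher and 5 lower in senescence, 11 higher and none lower after METTL3 knockdown, and 13 higher and none lower after METTL14 knockdown.

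SPRY4, a feedback inhibitor of RAS-ERK signalling, had 60.6 and 49.9 CPM in control cells, 169.8 and 162 in shControl cells, 261 and 223 with shMETTL3 and 252 and 223 with shMETTL14. It was the only member of 32 tested RAS and ERK feedback genes, of which 15 were higher and 2 lower in senescence, 9 and 4 after METTL3 knockdown, and 9 and 4 after METTL14 knockdown. HIVEP2, a zinc finger factor that binds NF-kappaB type sites, had 128 and 154 CPM in control cells, 292 and 275 in shControl cells, 409 and 473 with shMETTL3 and 545 and 555 with shMETTL14. MCTP1, a calcium-binding membrane protein with C2 domains, rose more in senescence than after the knockdowns, with 48.8 and 64.1 CPM in control cells, 279 and 259 in shControl cells, 373 and 463 with shMETTL3 and 594 and 589 with shMETTL14. None of the 3 was called between the knockdowns, with log2 fold changes of -0.23 (standard error 0.14), 0.11 (standard error 0.14) and 0.29 (standard error 0.14).

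Genes of receptor signalling were mostly covered by fewer reads. AGTR1, the type 1 angiotensin II receptor, had 6 and 1 counts in control cells, 7 and 9 in shControl cells, 26 and 37 with shMETTL3 and 25 and 23 with shMETTL14, and PLXNA2, a receptor for class 3 semaphorins, had 3 and 3, 12 and 11, 15 and 31 and 21 and 29. RGS20, which switches off G protein signalling, had 34.9 and 48.3 CPM in control cells, 65.4 and 72.9 in shControl cells, 118 and 136 with shMETTL3 and 116 and 117 with shMETTL14. None of the 3 was called between the knockdowns (log2 fold change -0.33 with standard error 0.38, 0.19 with 0.40 and -0.33 with 0.16). Of 39 tested G protein-coupled receptors and regulators 10 were higher and 9 lower in senescence, 6 and 5 after METTL3 knockdown, and 8 and 11 after METTL14 knockdown. Of 38 axon guidance genes these counts were 8 and 9, 13 and 4, and 6 and 10.

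The members not described one by one had ratios from 1.43 to 10.7 in senescence, 1.41 to 4.92 with shMETTL3 and 1.42 to 6.14 with shMETTL14. They were 42 genes, given by range and name, besides 1 member that is not described here. Among the 32 protein-coding ones were the immune receptors IL12RB2 and CD163L1, the kinases DYRK3, MAP3K8, MAST4 and PRKCH, the phosphatase genes PPM1L, PPP1R1C and PTPRE, and the lipid enzymes GPAT3 and PLA2G4C. ABCA13, SLC19A2 and SLC22A23 encode transporters, DOCK3 a regulator of small GTPases, GEM a small GTP-binding protein, and HIVEP3 a relative of HIVEP2. The others were ABTB2, ALG3, BRINP3, BTBD11, C11orf96, CSMD3, CUBN, DLGAP1, ITPRIP, KBTBD8, KIAA1551, NCOA7, PRPF40B, PXDNL and RNF32. The non-coding ones were FRMD6-AS2, HECTD2-AS1, LINC00616, LINC00862, LINC01846, LINC02015, LINC02246, LINC02407, LOC101927865 and SMILR. Of these genes, LINC02015, ITPRIP and LINC02246 were called higher with shMETTL14, and BRINP3, CD163L1, KIAA1551 and PPM1L were called lower. LINC02015 kept the call wherever it was tested, CD163L1 lost it in 1 alternative, ITPRIP and BRINP3 in 3 each, LINC02246 in 7, KIAA1551 in 8 and PPM1L in 10.

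The RefSeq classes of small nucleolar and small nuclear RNA held 5 of the 116 genes (4.31%), against 0.407% of the 11063, and are described with the genes that overlap them and a few others, put together after their values were seen. SNHG3, the host of SNORA73B, and RCC1, the nucleotide exchange factor of RAN, share a start region on chromosome 1, and all of SNHG3 lies inside RCC1. SNHG3 had 533 and 539 CPM in control cells, 1022 and 1020 in shControl cells, 1735 and 1502 with shMETTL3 and 1365 and 1662 with shMETTL14, and SNORA73B, inside both, had 273 and 251, 479.5 and 512, 927 and 759 and 752 and 944. RCC1 is 33.3 kb and SNHG3 4.95 kb long, but RCC1 had 1046 and 1079 counts in control cells against 994 and 1026 for SNHG3, so that nearly all of its reads lay in the part they share. SNHG4, another host, reached 167 and 149.9 CPM with shMETTL3 and 129 and 164 with shMETTL14 from 100.4 and 100.2 in shControl cells. SNORA81 and the overlapping MIR1248, RNU11 and the overlapping LINC01715, SNORA53, SNORA70, SCARNA1 and SCARNA6 were the others, and of these genes only SNORA53 was called between the knockdowns (log2 fold change -0.52, standard error 0.17, adjusted p = 0.017, edgeR), a call lost in 4 alternatives.

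Non-coding RNAs made up 35 of the 116 genes in the RefSeq classes of the table, or 30.2%, against 6.62% of the 11063 genes with 100 counts and 6.01% of the 233 genes that were lower after both knockdowns. Protein-coding genes were 75 of 116 (64.7%), against 91.8% and 91.8%. Of the 35, 10 (28.6%) were called higher and 4 (11.4%) lower with shMETTL14 than with shMETTL3, against 124 (11.7%) and 227 (21.4%) of the 1062 non-coding RNAs tested. These shares are not comparable, as LINC02474 and LOC101930114 among the higher and SCHLAP1 among the lower ones were admitted through a knockdown and AADACL2-AS1 and MIR548H2 overlap, and nothing is read from them. Several were almost silent in control cells. LINC02154 had 0 and 1 counts in control cells, 70 and 43 in shControl cells, 112 and 185 with shMETTL3 and 237 and 219 with shMETTL14, and its ratio in senescence was 140 with a 95% counting interval of 24.2 to 5487. LUCAT1, a stress-induced RNA, had 1 and 2 counts in control cells, 41 and 31 in shControl cells, 74 and 92 with shMETTL3 and 71 and 77 with shMETTL14.

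LINC02392 was the non-coding RNA of the set with the largest difference in favour of shMETTL14, with 1 and 1 counts in control cells, 31 and 33 in shControl cells, 60 and 83 with shMETTL3 and 201 and 142 with shMETTL14 (log2 fold change 1.32, standard error 0.20, adjusted p = 1.0e-05, edgeR). LINC02257 and LINC02474 overlap on opposite strands of chromosome 1 and had log2 fold changes between the knockdowns of 0.76 and 1.18. LINC02257 was called higher with shMETTL14 but lost the call without replicate 1 of shMETTL14 and with library size alone, and LINC02474 had 55 counts outside the shMETTL14 libraries and was admitted through them. MIR548H2, AADACL2-AS1 and the pseudogene AADACP1 overlap on chromosome 3, and their counts rose together. AADACL2-AS1 had 1 and 2 counts in control cells, 23 and 11 in shControl cells, 80 and 138 with shMETTL3 and 174 and 140 with shMETTL14, and MIR548H2 had 1 and 4, 22 and 11, 70 and 133 and 164 and 129. As reads of overlapping genes could not be told apart, these rows are not independent and say nothing about either strand alone.

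Such overlaps were frequent, and 40 of the 116 genes (34.5%) shared bases with another gene of at least 100 counts, against 24.7% of the 11063. Within the set, 14 pairs overlapped, 6 of them on opposite strands, and a further 4 pairs lay within 100 kb of each other. Counted as loci the set came to 104, of which 10 held several members. Besides those named, they included PKIA, an inhibitor of protein kinase A, with its antisense RNA PKIA-AS1. The pairs that lay close without overlap, besides those named, were APCDD1L with APCDD1L-DT, 440 bases apart, and LINC02262 with LINC02263, 12 bases apart. APCDD1L-DT was called lower with shMETTL14 (log2 fold change -1.04, standard error 0.30, adjusted p = 0.0074, edgeR), a call lost with DESeq2 and without replicate 1 of shMETTL14, and the adjacent APCDD1L was not (log2 fold change 0.23, standard error 0.18, adjusted p = 0.34, edgeR). Without any gene that overlaps another one, 76 of the 116 were left.

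The genes of the set were longer than average. Their median length was 59.1 kb, against 36.9 kb over the 11063 genes and 26.0 kb over the 233 genes lower after both knockdowns, and 44 (37.9%) were longer than 100 kb, against 22.0% and 18.0%. The 24 genes called lower with shMETTL14 had a median of 135 kb and the 20 called higher one of 60.2 kb. The same order held over all genes called between the knockdowns, with 86.5 kb for the lower and 18.9 kb for the higher ones. Of the 21 members longer than 300 kb, 9 (42.9%) were called lower and 1 (4.76%), PDE7B, higher, against 46.5% and 10.7% of the 589 tested genes of that length. A longer gene collects more reads, and the sets were not matched on length or depth, so that the part of length in these differences was not tested.

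**Figure D4:**
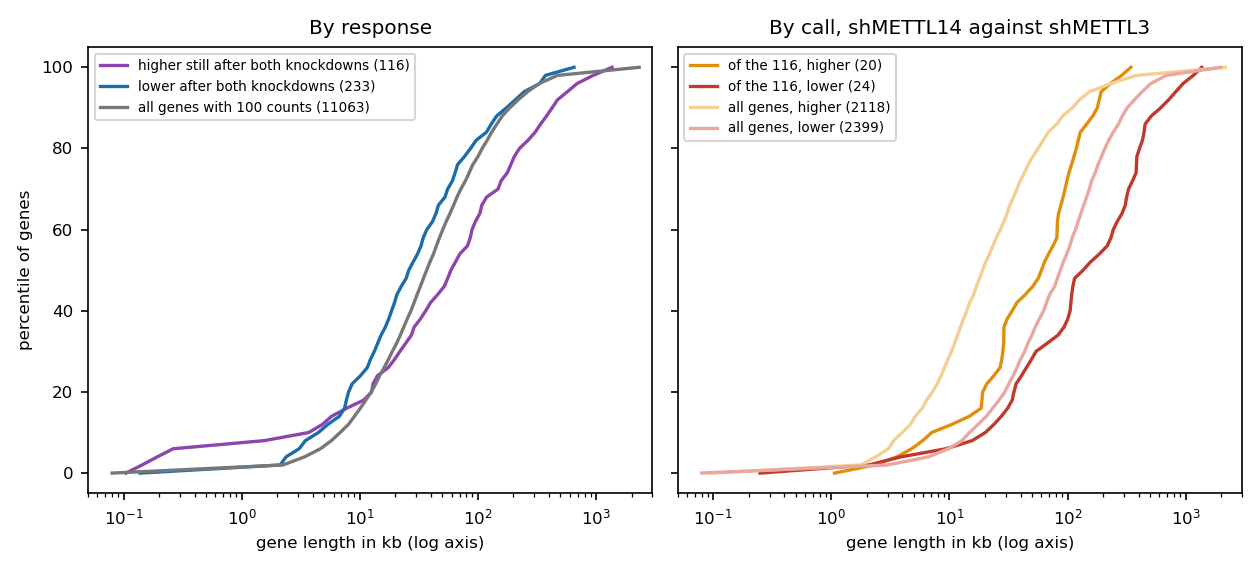
Percentiles of gene length (log axis) for the 116 genes, for the 233 genes higher in senescence and lower after both knockdowns and for all 11063 genes with at least 100 counts (left), and for genes called between the knockdowns within the set and over all genes tested (right). The curve of the set runs to the right of the others over its upper part, with a median of 59.1 kb, and in both the set and all genes those lower with shMETTL14 are longer than those higher.

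Gene lists that fit the tissue and treatment were then read over all genes, irrespective of the selection. Over all 12844 genes tested, 13.3% were higher and 13.3% lower in senescence, 12.3% higher and 11.2% lower after METTL3 knockdown, and 9.15% higher and 12% lower after METTL14 knockdown. The list of AP-1, EGR, ATF and C/EBP factors, with 4 members, had 9 higher and 1 lower of 28 tested genes in senescence, 5 and 4 after METTL3 knockdown, and 11 and none after METTL14 knockdown, and 14 were higher and 3 lower with shMETTL14 than with shMETTL3. Of 19 tested chemokines, interleukins and colony-stimulating factors none was a member. In this list 15 genes were higher and 4 lower in senescence, none higher and 17 lower after METTL3 knockdown, and 3 higher and 11 lower after METTL14 knockdown. With shMETTL14 against shMETTL3, 13 of them were higher and 1 lower. In this contrast the other lists that hold members had 1 higher and 9 lower of the sulfation enzymes, 3 and 10 of the WNT and NOTCH genes, 7 and 19 of the growth factors and receptors, 2 and 10 of the interferon-stimulated genes, 9 and 9 of the RAS and ERK feedback genes, 8 and 16 of the G protein-coupled receptors and regulators, and 5 and 13 of the axon guidance genes.

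The remaining lists also held no member. Of 34 tested genes of mitosis and DNA replication, none was higher and 20 lower in senescence, and none was higher and 13 lower after either knockdown. Of 15 matrix metalloproteinases and inhibitors, 7 were higher and 2 lower in senescence, 1 and 8 after METTL3 knockdown, and 2 and 7 after METTL14 knockdown. Of 22 ADAM and ADAMTS proteases, 4 were higher and 6 lower in senescence, 5 and 2 after METTL3 knockdown, and 3 and 9 after METTL14 knockdown. For 40 ion channels these counts were 7 and 12, 8 and 7, and 5 and 11. For 32 cadherins and neural adhesion genes they were 6 and 14, 11 and 3, and 7 and 6, and for 41 genes of the TGF-beta and BMP pathways 13 and 11, 6 and 10, and 4 and 15.

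The choice of scale set which genes were selected. With CPM scaled by TMM or by DESeq2's size factors, 128 genes met the same rule, 100 of them in the set. With the ribosomal RNA rows left in the library sum, 169 met it and 75 were shared. When the folds and the order were replaced by an adjusted p below 0.05 (edgeR) in the 3 contrasts, 72 genes were left, of which 59 were in the set. The share of ribosomal RNA was highest with shControl, at 92.1% and 92.5%, and its part in the selection was not tested.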

How the data were processed

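The authors deposited raw counts per gene, with replicates kept apart and without normalization. Per the labels and file headers, reads were aligned to hg19 (STAR is among the tools named, version not given in the sources used here) and HOMER counted those falling anywhere between a gene's start and end, in exons or introns. The library kit keeps strand, but of 315 gene pairs nested on opposite strands the inner gene exceeded the outer one in 2 only, so reads of overlapping genes could not be told apart. No row lacked a gene name. The members, gene lists and tests were chosen with earlier results of these data known.

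CPM was computed over rows other than those of ribosomal RNA (86.2% to 92.5% of the counts). Contrasts were fitted with edgeR 4.0.16 in R 4.3.3 to all 8 libraries (TMM, filterByExpr with a minimum count of 10, quasi-likelihood test, Benjamini-Hochberg adjusted p below 0.05 over 12844 genes). The standard error is the log2 fold change over the square root of F. The script was tested on simulated counts. Alternatives were DESeq2 1.42.0, library size alone, upper quartile, TMM without ribosomal RNA rows, other filters, only the groups compared, a replicate block, an adjusted p below 0.01, other limits of the rule and each library left out.

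Named were METTL3 and METTL14, the 12 members with the most reads, members in a gene list, the 5 largest called differences each way between the knockdowns, the 3 genes on each side of the limit, and members within 100 kb of another. Other genes named were chosen after their values were seen. Of the set, 1 member is left out of the text. Plots were drawn with matplotlib 3.10.9. Intervals and floors cover counting error only.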

Additional observations from a re-analysis of the deposited data

How the results depend on the processing

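With DESeq2, 11 of the 116 genes were higher and 14 lower with shMETTL14 than with shMETTL3. Over all genes 1212 were higher and 1707 lower. DESeq2 also gave 957 genes higher and 728 lower after METTL3 knockdown, 568 higher and 951 lower after METTL14 knockdown, and 908 lower in senescence. Scaling by library size alone used totals that include the ribosomal RNA rows. It shifts the median of all genes by -0.53 in senescence and by -0.25 between the knockdowns. After METTL3 and METTL14 knockdown the shifts were 0.58 and 0.35. With shMETTL14 against shMETTL3, 12 of the 116 genes were higher and 44 lower, with a median of -0.32 over the set. In this scaling 1177 of all genes were higher and 3486 lower. Under it 752 genes were higher and 5015 lower in senescence, 5287 higher and 353 lower after METTL3 knockdown, and 3163 higher and 709 lower after METTL14 knockdown. When at least 10 counts were required in every library, 66 of the 116 genes were left. Of these, 8 were higher and 17 lower with shMETTL14 than with shMETTL3, with a median of -0.20. Over all genes 1839 were higher and 2010 lower under this filter. At an adjusted p below 0.01, 1328 genes were higher with shMETTL14 than with shMETTL3, 964 higher and 788 lower after METTL3 knockdown, 626 higher and 945 lower after METTL14 knockdown, and 1045 lower in senescence.

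Leaving out each library in turn gave 10 to 22 of the 116 genes higher and 11 to 28 lower with shMETTL14 than with shMETTL3, the lowest of both without replicate 1 of shMETTL14. Over all genes the ranges were 995 to 2697 higher and 1409 to 2712 lower between the knockdowns, 1066 to 2146 higher and 763 to 2145 lower in senescence, 769 to 1932 higher and 723 to 2060 lower after METTL3 knockdown, and 486 to 1645 higher and 784 to 1930 lower after METTL14 knockdown. A lone library was assumed to vary like the other groups. The cause of these changes was not tested.

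The selection itself gave 198 genes with a fold of 1.2 and 29 with a fold of 2, 57 with at least 500 summed counts, 72 by adjusted p, and 76 without overlapping genes. Leaving out a library gave 98 to 132 genes, of which 94 to 109 were in the set. Deviations of same-numbered libraries correlated at -0.05 to 0.14 between groups. Counting error lowers such correlations, so they do not decide whether the replicate numbers pair the libraries. With the replicate block, 18 of the 116 genes were higher and 24 lower between the knockdowns, and 2 of the 44 calls were lost. Of the 44 called differences, 18 kept the call under every alternative, 26 lost it under at least 1, and none changed sign where the gene was tested.

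With 2 libraries per group, no permutation test of a single gene could pass the threshold. Low counts limit 30 genes with under 200 summed counts, and 13 genes had at most 3 counts in control cells.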
